A study of Mus musculus with 8 samples.

Results

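A set of genes that mark the projection neurons of the striatum, among them the dopamine receptors Drd1, Drd2 and Drd3, was followed in RNA-seq of the cortex of 8 tau-transgenic mice, 4 of genotype PS19 and 4 of genotype Adrb1+/m;PS19. The genes were Drd1, Drd2, Drd3, Adora2a, Ppp1r1b, Tac1, Penk, Pdyn and Gpr6, 9 of the 54532 genes in the count table, taken by gene name. They were chosen by values of these same libraries, namely their difference between the genotypes and their covariation over the mice, so both are given below as a description, and the p-value calls counted for them in the fit over all genes support nothing. Every mouse was 8 mo old and labelled as strain C57BL/6, and carried the PS19 transgene, a human 1N4R tau with the P301S mutation under the mouse prion promoter. The Adrb1+/m;PS19 mice had in addition 1 knock-in allele of the β1-adrenergic receptor gene with the A187V change. No mouse without the tau transgene was sequenced, so the effect of the transgene itself is not measured here.

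The striatum lies beneath the cortex and is built mainly of projection neurons of 2 kinds. Neurons of the direct pathway express the D1 dopamine receptor (Drd1) with the peptide precursors Tac1, the source of substance P, and Pdyn, the source of the dynorphins. Neurons of the indirect pathway express the D2 dopamine receptor (Drd2) with the striatal adenosine receptor (Adora2a), the orphan receptor Gpr6 and proenkephalin (Penk). Both kinds express Ppp1r1b, which encodes DARPP-32, a phosphatase inhibitor switched by dopamine through cAMP. D1 receptors raise cAMP and D2 and D3 receptors lower it. Drd3 is known mainly from the ventral striatum and the islands of Calleja. In the cortex itself Penk, Tac1 and Pdyn are also made by some interneurons, and Drd1 and Drd2 by some deep-layer neurons.

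Genes that move together can be set beside their promoters, and the sequence most often named for cAMP-driven genes is the cAMP response element (CRE), TGACGTCA. RefSeq promoter windows of GRCm38.p6 were at hand for 6 of the 9 genes, Drd1, Drd2, Drd3, Tac1, Pdyn and Gpr6. The 250 bases before the RefSeq start were searched on both strands for the CRE, for its half-site TGACG, which lies inside the CRE and so is counted in it again, and for the AP-1 site TGANTCA. Shown are the windows of the receptor pair whose ratio is given below, Drd1 and Drd2, and those of Tac1 and Gpr6, which held a match. Each is cut to the part upstream of the gene as the count table places it and is written from 5′ to 3′ in the direction of the gene, with CREs and half-sites in capitals. They lie at chr13:54055706-54055908 (minus strand), chr9:49340153-49340402 (plus strand), chr6:7554811-7554878 (plus strand) and chr10:41072291-41072540 (minus strand).
Drd1: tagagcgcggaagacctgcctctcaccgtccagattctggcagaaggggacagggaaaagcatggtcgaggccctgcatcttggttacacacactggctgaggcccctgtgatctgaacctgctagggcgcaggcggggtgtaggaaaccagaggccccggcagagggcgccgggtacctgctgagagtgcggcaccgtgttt
Drd2: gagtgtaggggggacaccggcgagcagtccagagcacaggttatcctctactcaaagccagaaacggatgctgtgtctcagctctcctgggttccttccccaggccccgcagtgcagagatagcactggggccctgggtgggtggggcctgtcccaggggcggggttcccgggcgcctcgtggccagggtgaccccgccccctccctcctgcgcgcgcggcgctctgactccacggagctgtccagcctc
Tac1: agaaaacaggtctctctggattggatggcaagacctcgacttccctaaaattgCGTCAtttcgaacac
Gpr6: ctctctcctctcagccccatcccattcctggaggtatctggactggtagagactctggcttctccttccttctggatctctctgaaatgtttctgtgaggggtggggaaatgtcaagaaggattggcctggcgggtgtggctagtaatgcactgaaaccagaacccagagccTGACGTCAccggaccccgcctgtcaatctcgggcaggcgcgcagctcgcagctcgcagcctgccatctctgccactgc

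The 6 genes had 8 windows, and only that of Gpr6 held the whole CRE, centred 74 bases before the start, against 1.55% of the 32851 promoter windows of the table. The window of Drd3, and 1 each of Drd1 and Pdyn, lay wholly inside the gene as the count table places it. The window of Tac1 and the other window of Drd1 lay partly inside it. The half-site was present in Gpr6 and Tac1, against 17.8% of all windows. In Tac1 it started 197 and 43 bases before the RefSeq start, and the nearer match lay inside the gene and is not shown. No window of the 6 genes held the AP-1 site, which 6.75% of all windows did. These are matches of letters and no measurement of binding.

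The libraries held between 14653222 and 21223754 counts in PS19 mice and between 16865651 and 20802158 in Adrb1+/m;PS19 mice. Levels are given as CPM, which are counts scaled to a common library size by the TMM method (factors from 0.990 to 1.01). Between mice of 1 genotype the chi-square per degree of freedom was 4.83 to 9.95, more than sampling noise gives. Adrb1 had 36.8 ± 4.19 CPM (SD, n = 4) in PS19 and 35.0 ± 3.71 (SD, n = 4) in Adrb1+/m;PS19 mice, and a base change does not show in counts per gene. Slc17a7, the vesicular glutamate transporter of cortical excitatory neurons, was abundant in every library labelled as cortex, at 909.3 to 1259 CPM.

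Per length, Penk and Ppp1r1b were the most abundant of the 9 genes and Drd3 by far the least. Divided by the gene length in the table, the mean over the 8 mice was highest for Penk, at 154.3 ± 48.8 CPM per kb (SD, n = 8), and for Ppp1r1b, at 106.3 ± 34.3. Adora2a followed at 20.8 ± 8.28, then Drd2 at 15.1 ± 6.03, Tac1 at 15.1 ± 4.70, Pdyn at 13.6 ± 2.39, Drd1 at 13.5 ± 4.29 and Gpr6 at 9.22 ± 3.53 CPM per kb. Drd3 was far below, at 0.519 ± 0.370. From Adora2a down to Drd1 each gene lay within 1 SD of its neighbour, and the step from Penk to Ppp1r1b was within the SD of Penk. The step from Drd1 to Gpr6 was just larger than either SD, and those from Ppp1r1b down to Adora2a and from Gpr6 down to Drd3 were larger still. These SDs are between mice. The genes were measured in the same mice and covaried, so the SDs do not tell whether 1 gene exceeds another within a mouse. Penk had 106.6 CPM per kb in m677 and 231.4 in m671, and Ppp1r1b 68.9 and 166.1 in the same mice.

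All 9 genes were higher on average in Adrb1+/m;PS19 than in PS19 mice, but for 8 of them the genotypes overlapped. PS19 mouse m668 had values as high as the high Adrb1+/m;PS19 mice and Adrb1+/m;PS19 mouse m661 had values as low as the low PS19 mice for many genes. The log2 fold changes ran from 0.27 for Ppp1r1b to 1.44 for Drd3, with a median of 0.34, where all 17195 genes tested had a median of 0.00046 and 50.2% of them were above 0. In edgeR's quasi-likelihood test 3 of the 9, Drd3, Pdyn and Tac1, had an unadjusted p-value under 0.05, the study's own criterion, a call that 1.42% of all genes tested met in the same direction. None passed after Benjamini-Hochberg adjustment, nor did any other gene tested (0%). By that unadjusted criterion the count of the 9 was 3 with limma-voom and 2 with DESeq2. Since the genes were chosen on this contrast, nothing is read from these counts. The count was 9 without m668, 7 without m661 and 1 without PS19 mouse m659 or Adrb1+/m;PS19 mouse m658. The median log2 fold change was 0.62 without m668, 0.54 without m661, 0.22 without m659 and 0.19 without Adrb1+/m;PS19 mouse m671. In bulk tissue, more cells of a type and more RNA per cell cannot be told apart.

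**Figure D1:**
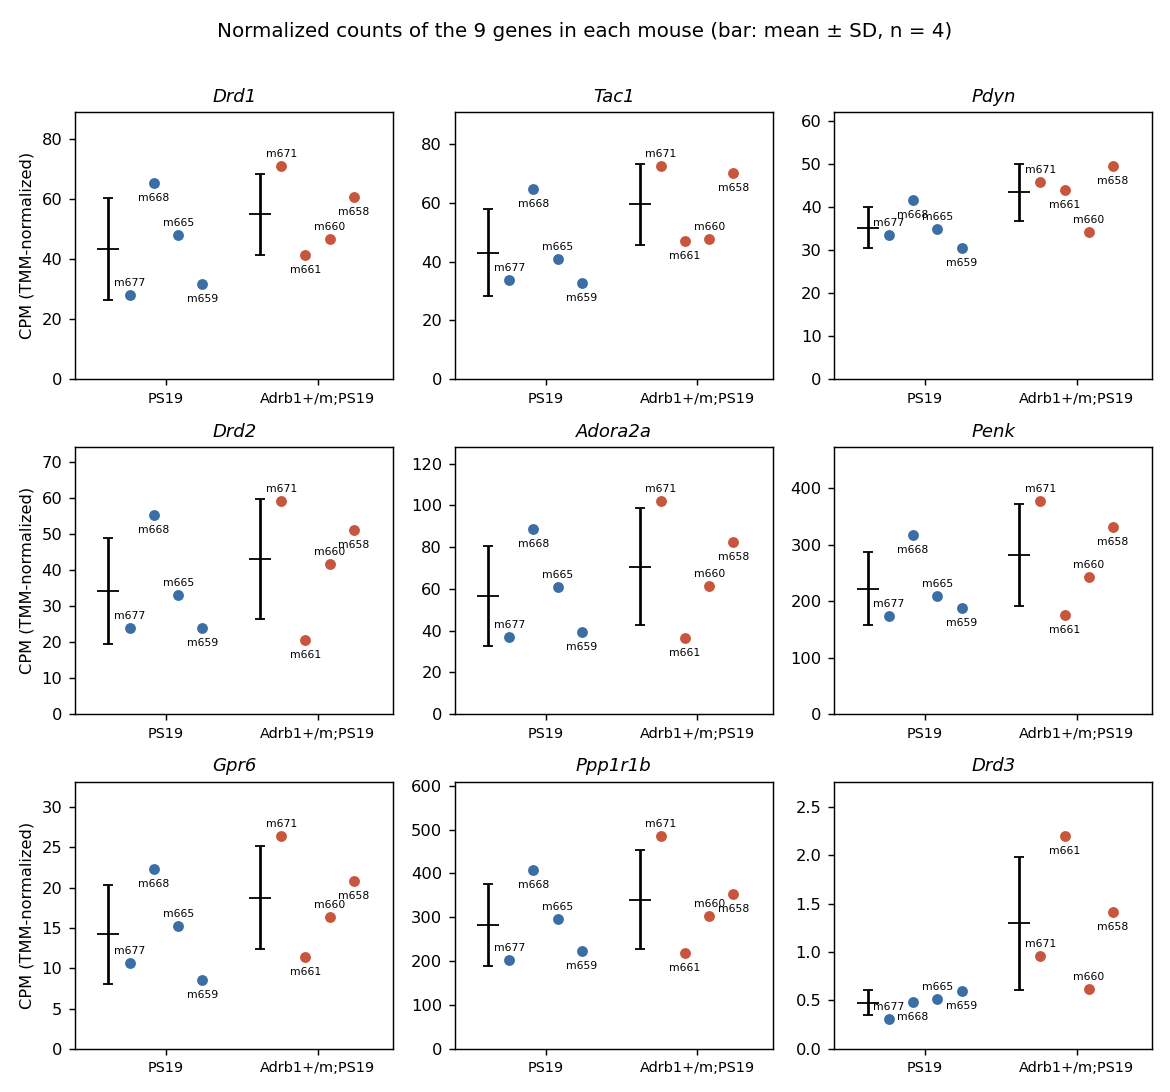
Normalized counts (CPM, linear axis from 0) of the 9 genes in each mouse, 1 panel per gene, with PS19 mice in blue and Adrb1+/m;PS19 mice in red. Points are mice and the black bars the mean ± SD (n = 4). In most panels m668 and m671 are the highest mice of their genotypes, and only for Drd3 do the genotypes not overlap.

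Among the dopamine receptors, Drd1 (ENSMUSG00000021478, chromosome 13 of GRCm38, 54051183 to 54055705), the receptor of the direct pathway, had 28.0, 65.3, 47.9 and 31.7 CPM in PS19 mice m677, m668, m665 and m659, and 71.0, 41.2, 46.8 and 60.7 in Adrb1+/m;PS19 mice m671, m661, m660 and m658. The mice of the 2 genotypes interleaved, with means of 43.2 ± 17.1 and 54.9 ± 13.5 CPM (SD, n = 4 each) and a log2 fold change of 0.34 ± 0.23 (SE). Drd2 (ENSMUSG00000032259, chromosome 9, 49340627 to 49408177), the receptor of the indirect pathway, had 23.9, 55.2, 33.0 and 24.0 CPM in the PS19 mice in the same order, and 59.1, 20.5, 41.5 and 51.0 in the Adrb1+/m;PS19 mice. Its highest and its lowest value were both in Adrb1+/m;PS19 mice, m671 and m661, so that the range within that genotype, 2.89-fold, exceeded the 1.27-fold ratio of the means. The log2 fold change of Drd2 was 0.34 ± 0.29 (SE).

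Drd3 (ENSMUSG00000022705, chromosome 16, 43754026 to 43822932) was the exception in size and in pattern. It was counted 5, 7, 11 and 10 times in PS19 mice m677, m668, m665 and m659, and 16, 46, 11 and 25 times in Adrb1+/m;PS19 mice m671, m661, m660 and m658. In CPM these were 0.306 to 0.602 against 0.616 to 2.20, without overlap, a separation that 1.02% of all genes tested showed in the same direction. It hung on 10 counts in m659 against 11 in m660, whose exact Poisson intervals of 95% were 4.80 to 18.4 and 5.49 to 19.7 and cover counting error alone. The log2 fold change of 1.44 ± 0.42 (SE) was 1.04 without m661, the mouse with the most Drd3 and the least Drd2.

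The 2 other receptors mark the indirect pathway. Adora2a (ENSMUSG00000020178, chromosome 10, 75316877 to 75334784), the striatal adenosine receptor, had 37.1, 88.7, 60.7 and 39.5 CPM in PS19 mice m677, m668, m665 and m659, and 102.3, 36.6, 61.5 and 82.3 in Adrb1+/m;PS19 mice m671, m661, m660 and m658. It followed Drd2 closely, and its log2 fold change was 0.32 ± 0.29 (SE). Gpr6 (ENSMUSG00000046922, chromosome 10, 41069977 to 41072285), an orphan receptor that signals through cAMP, had 10.7, 22.4, 15.2 and 8.49 CPM in PS19 and 26.5, 11.4, 16.3 and 20.8 in Adrb1+/m;PS19 mice in the same order. Its ratio of highest to lowest mouse, 3.11, was the largest of the 9 genes after Drd3, and its log2 fold change was 0.40 ± 0.27 (SE).

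Ppp1r1b (ENSMUSG00000061718, chromosome 11, 98348404 to 98357796), which encodes DARPP-32 in both kinds of projection neuron, was the best counted of the 9 genes, with 3296 to 8106 counts per mouse. It had 201.8, 407.8, 295.0 and 222.9 CPM in PS19 mice m677, m668, m665 and m659, and 486.2, 218.0, 303.2 and 353.9 in Adrb1+/m;PS19 mice m671, m661, m660 and m658. At this depth counting error was small beside the spread between mice, which was 2.02-fold within PS19 and 2.23-fold within Adrb1+/m;PS19. The log2 fold change was 0.27 ± 0.23 (SE), and 0.05 without m671.

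The 3 peptide precursors were Penk of the indirect and Tac1 and Pdyn of the direct pathway. Penk (ENSMUSG00000045573, chromosome 4, 4133531 to 4138819) had 174.2, 317.9, 209.5 and 187.7 CPM in PS19 mice m677, m668, m665 and m659, and 378.1, 175.7, 241.9 and 331.6 in Adrb1+/m;PS19 mice m671, m661, m660 and m658. Again m668 lay among the high Adrb1+/m;PS19 mice and m661 among the low PS19 mice, and the log2 fold change was 0.34 ± 0.21 (SE). Tac1 (ENSMUSG00000061762, chromosome 6, 7554879 to 7565834) had 33.7, 64.7, 41.0 and 32.8 CPM in PS19 and 72.6, 47.1, 47.8 and 70.3 in Adrb1+/m;PS19 mice in the same order. Apart from m668, every PS19 mouse was below every Adrb1+/m;PS19 mouse, and the log2 fold change was 0.47 ± 0.20 (SE). Pdyn (ENSMUSG00000027400, chromosome 2, 129686565 to 129699844) had 33.6, 41.7, 34.9 and 30.5 CPM in PS19 and 45.9, 44.0, 34.2 and 49.6 in Adrb1+/m;PS19 mice. It varied least over the mice, by 1.63-fold from lowest to highest, and had a log2 fold change of 0.31 ± 0.11 (SE), the smallest SE of the 9.

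**Figure D2:**
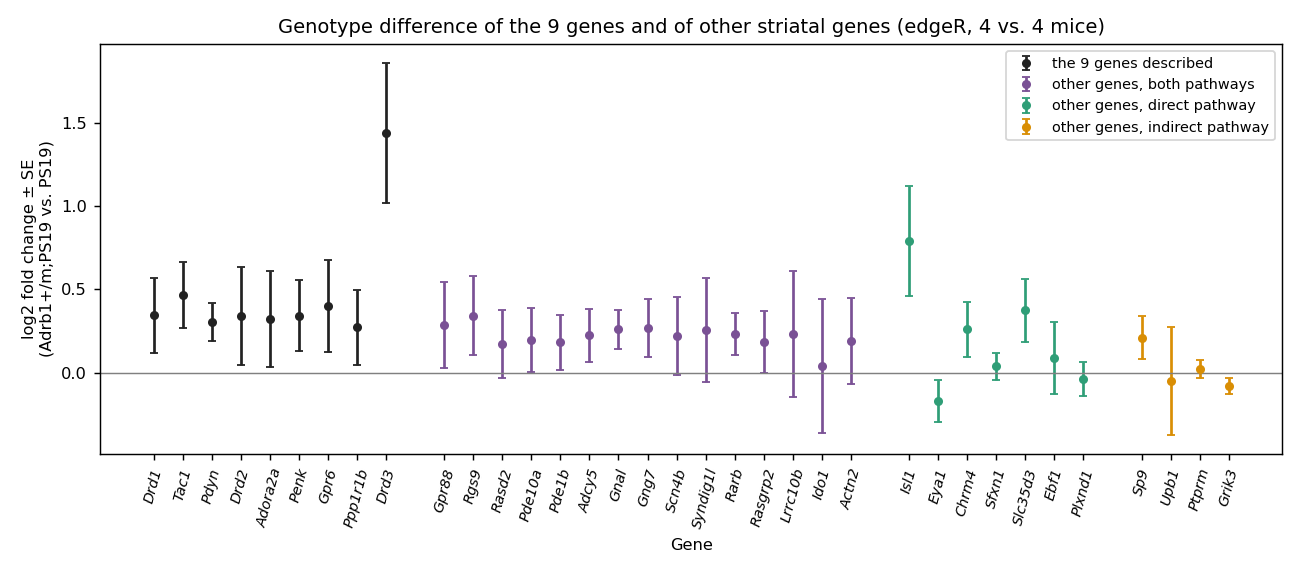
Log2 fold changes of Adrb1+/m;PS19 vs. PS19 mice (edgeR, 4 against 4 mice, bars are standard errors) for the 9 genes and for other striatal genes of both pathways, the direct pathway and the indirect pathway. The 9 genes and all 15 other genes of both pathways lie above 0, while the other direct- and indirect-pathway genes lie on both sides.

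The order of the mice was much the same from gene to gene. Mouse m671 was the highest of the 8 in 7 of the 9 genes, and m677 was among the lowest 2 in all 9. Each gene's log2 CPM was centred on its mean and averaged over the 9 genes to a score, by which the PS19 mice had -0.59 (m677), -0.51 (m659), -0.13 (m665) and 0.34 (m668), and the Adrb1+/m;PS19 mice -0.16 (m661), -0.0091 (m660), 0.47 (m658) and 0.60 (m671). The distance from the lowest to the highest mouse within either genotype was thus wider than the difference of 0.44 between the genotype means.

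Pearson's r of log2 CPM over the 8 mice averaged 0.73 over the 36 pairs of genes, and 0.64 after the mean of each genotype was removed. Both genes of a pair were read from the same 8 libraries and dissections, so these values describe those libraries. The 4 indirect-pathway genes were the tightest group, with r between 0.94 and 0.98 in all 6 pairs, and between 0.93 and 0.98 with genotype means removed. Ppp1r1b joined them, with 0.99 for its pair with Adora2a. The 3 direct-pathway genes had r of 0.75 to 0.95, Drd1 with Tac1 at the top and Drd1 with Pdyn at the bottom. Across the pathways the 12 pairs had r of 0.54 to 0.95, and the lowest, Drd2 with Pdyn, had 0.48 with genotype means removed.

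Drd3 stood outside this pattern. Its r with the mean of the other 8 genes was 0.20, and -0.19 with genotype means removed, where the other genes had 0.71 (Pdyn) to 0.97 (Drd1). Its highest r was with Pdyn, 0.70, and its lowest with Drd2, -0.02, and with genotype means removed these were 0.43 and -0.39. With 5 to 46 counts per mouse, weak values of Drd3 carry much counting error. Without Drd3 the mean over the pairs was 0.87, and 0.86 with genotype means removed. With all 9 genes but without m661 it was 0.88, and 0.80 with genotype means removed. How far Drd3 stood outside the pattern thus depended in large part on m661, which had the most Drd3, 46 counts, and the lowest CPM of Drd2.

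**Figure D3:**
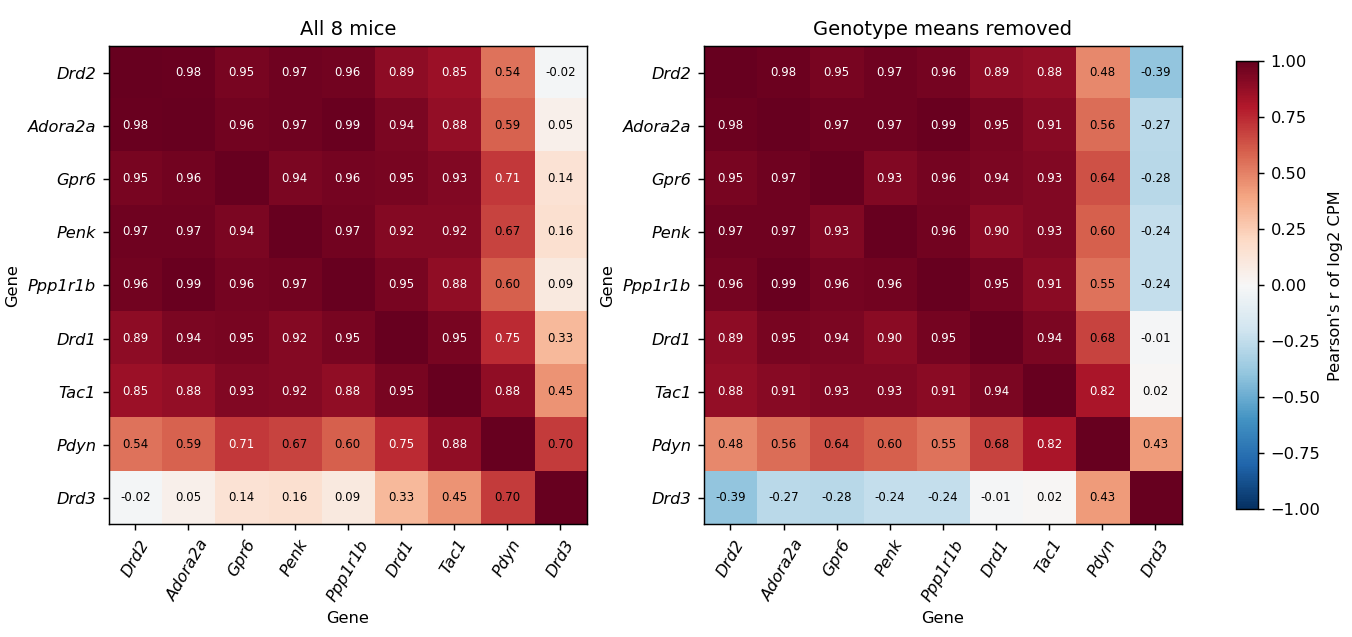
Pearson's r of log2 CPM between each pair of the 9 genes over the 8 mice (left) and after the mean of each genotype was removed (right), on a color scale from -1 to 1. The indirect-pathway genes and Ppp1r1b form a block of values of 0.93 or more, Pdyn is looser, and Drd3 has the lowest values with most genes, many of them below 0 in the right panel.

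The balance between the pathways was furthest from the other mice in m661. The ratio of Drd1 to Drd2 counts was 1.17, 1.18, 1.45 and 1.32 in PS19 mice m677, m668, m665 and m659, and 1.20, 2.01, 1.13 and 1.19 in Adrb1+/m;PS19 mice m671, m661, m660 and m658. In m661 the exact binomial interval of 95%, again counting error alone, was 1.79 to 2.26, above that of the next mouse, m665, at 1.32 to 1.60. That of m665 in turn lay above those of m668, m671, m660 and m658, none of whose upper bounds exceeded 1.31, so mice differed by more than counting error without m661 too. Tac1 over Penk, the peptide counterpart, was 0.268 in m661 (interval 0.250 to 0.288) and 0.175 to 0.212 in the other 7 mice. Pdyn over Penk was 0.250 in m661 and 0.121 to 0.193 in the others. The indirect-pathway genes of m661 lay at the level of the low PS19 mice, whereas its Drd1, Tac1 and Pdyn did not. The score of the 3 direct-pathway genes less that of the 4 indirect-pathway genes was 0.57 in m661 and -0.26 to 0.10 in the others. Lists of other genes of the 2 pathways, described below, did not repeat this. Their difference was -0.05 in m661, inside the range of -0.19 to 0.22 of the other mice. Genotype means of the Drd1 to Drd2 ratio were 1.28 ± 0.133 in PS19 and 1.38 ± 0.420 in Adrb1+/m;PS19 mice (SD, n = 4 each), and the Adrb1+/m;PS19 mice other than m661 lay at 1.13 to 1.20, within or below the lower part of the PS19 range of 1.17 to 1.45.

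**Figure D4:**
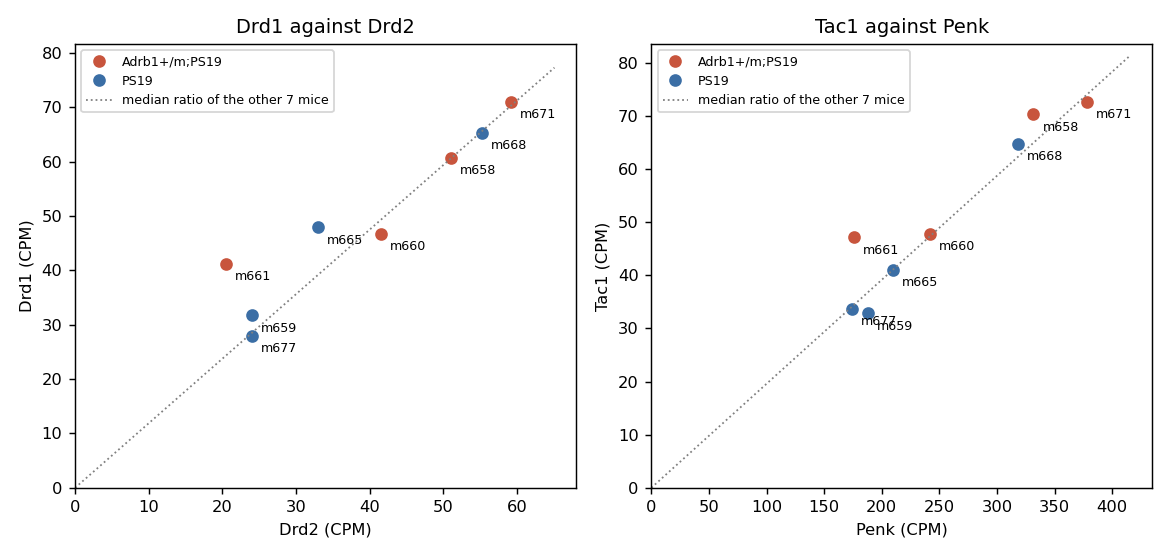
Drd1 against Drd2 (left) and Tac1 against Penk (right) in CPM, 1 point per mouse, both axes linear from 0. The dotted line is the median ratio of the 7 mice other than m661, and m661 lies above it in both panels.

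Other genes of the striatal projection neurons were taken as lists that leave out the 9 genes, and those of both pathways followed a similar order of the mice. Of 15 other genes shared by both pathways, all 15 were higher in Adrb1+/m;PS19 mice (median log2 fold change 0.22), and 1 met the unadjusted criterion. Of all genes tested, 50.2% were above 0 and 1.42% met that criterion in this direction. The 15 genes were read from the same 8 libraries and varied together, so their shared sign is a description and not 15 separate observations. Their median was 0.05 without m671, 0.10 without m659 or m677, 0.35 without m661 and 0.40 without m668. The gene that met the criterion was Gnal, the G protein that couples the receptors Drd1 and Adora2a to adenylyl cyclase. It had 207.1 to 320.1 CPM in PS19 and 257.6 to 339.3 in Adrb1+/m;PS19 mice and a log2 fold change of 0.26 ± 0.12 (SE). Rarb, a retinoic acid receptor of the striatum, and Gng7, a G protein subunit that pairs with the product of Gnal, had log2 fold changes of 0.23 and 0.27 (SE 0.13 and 0.17). The score of the list ran from -0.48 to 0.47 in PS19 and from -0.50 to 0.56 in Adrb1+/m;PS19 mice, lowest in m661 and highest in m671. Its r with the score of the 9 genes was 0.92 over the 8 mice, and 0.96 with genotype means removed.

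Among 7 other genes of the direct pathway 5 were higher and 2 lower, with a median log2 fold change of 0.09, which was 0.05 without m677 or m671, 0.06 without m659, 0.14 without m661, 0.15 without m668 and 0.29 without m665. Isl1, a transcription factor of direct-pathway and cholinergic neurons, met the unadjusted criterion, with 1.16 to 4.21 CPM in PS19 and 3.30 to 6.00 in Adrb1+/m;PS19 mice and a log2 fold change of 0.79 ± 0.33 (SE). Slc35d3, a membrane transporter, had 0.37 ± 0.19 (SE), and Chrm4, the muscarinic receptor of these neurons, 0.26 ± 0.16 (SE). Of 5 other genes of the indirect pathway Gpr52 was not analysed here. The other 4 went both ways around a median of -0.01, which was 0.13 without m668, and none met the criterion. The scores of the direct and indirect lists had r of 0.96 and 0.83 with that of the 9 genes, and of 0.94 and 0.88 with genotype means removed. Sp9, a transcription factor of these neurons, had 0.21 ± 0.13 (SE), Grik3, a kainate receptor subunit, -0.08 ± 0.05, and Ptprm, a receptor phosphatase, 0.02 ± 0.06. Grik3 and Ptprm varied little over the mice, by 1.12-fold and 1.11-fold, and the remaining gene, Upb1, had 12 to 25 counts per mouse. The score of the indirect list thus followed mainly Sp9 and the weakly counted Upb1. The score of the other direct-pathway genes less that of the other indirect-pathway genes was -0.05 in m661, inside the range of -0.19 to 0.22 of the other mice.

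Among the remaining genes of dopamine signaling, the other D2-like receptor, Drd4, had 4 to 15 counts per mouse and did not pass the filter on low counts. Drd5, the other D1-like receptor, had 0.966 to 1.29 CPM in PS19 and 0.672 to 1.26 in Adrb1+/m;PS19 mice, a log2 fold change of -0.24 ± 0.30 (SE). Of 7 genes of dopamine synthesis, transport and breakdown, 6 were tested, 4 were higher and 2 lower, and the transporter gene Slc6a3, with 3 to 14 counts, was not tested. Maob, an enzyme that breaks dopamine down, met the unadjusted criterion, with a log2 fold change of 0.19 ± 0.08 (SE), and Th, the first enzyme of dopamine synthesis, had 0.25 ± 0.28. Of 9 receptors of tachykinins, opioid peptides and adenosine, 8 were tested, 6 were higher and 2 lower, with a median of 0.12 (0.05 without m668, 0.07 without m658 and 0.25 without m659), and Tacr2 was too low to test. The κ-opioid receptor gene Oprk1, the receptor of the dynorphins, had 11.2 to 16.0 CPM in PS19 and 13.0 to 18.2 in Adrb1+/m;PS19 mice, a log2 fold change of 0.35 ± 0.13 (SE). Tacr3 had one of 0.59 ± 0.26 (SE), and Tacr1, the receptor of substance P, one of 0.36 ± 0.20 (SE). Oprk1 and Tacr3 met the unadjusted criterion and Tacr1 did not. Of 10 genes for partners and relatives of DARPP-32, 5 were higher and 5 lower, and none met the criterion. Their score had an r of 0.77 with that of the 9 genes, and of 0.92 with genotype means removed. The lowest p-values among them belonged to Ppp1r1a, a phosphatase inhibitor related to DARPP-32, with a log2 fold change of -0.10 ± 0.07 (SE), to Arpp21, with 0.11 ± 0.09, and to the kinase gene Cdk5, with -0.07 ± 0.06. No gene of these lists passed after adjustment over all genes tested.

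Genes outside the 9 were ranked by their r with the score of the 9 over the 8 mice, genotype means removed, among 15766 genes with a mean of at least 1 CPM, whose median r was -0.01. An r over 0.9 was found for 165 of them, or 1.05%. Among the 10 highest were Tomm70a, Gng7, Adcy5, Rgs8, Nanos1, Tesc, Nup93, Anks1b and Inf2, with r of 0.98 to 0.99. Gng7 and Adcy5, the main adenylyl cyclase of the striatum, stood in the list of genes of both pathways, and the others named here in no list. Adcy5 ran from 305.0 CPM in m677 to 540.1 in m671, and Gng7 from 161.4 to 316.1 in the same mice. The 3 lowest were Srgn, Grp and Wdr36, with r of -0.97 each, and of these Grp, a neuropeptide of cortical neurons, had 5.87 to 9.19 CPM in PS19 and 4.24 to 6.85 in Adrb1+/m;PS19 mice.

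Markers of other cells that a cortical dissection can hold were set beside the score of the 9 genes, and their part in the result was not tested. All 8 markers of basal forebrain cholinergic neurons, which lie next to the ventral striatum, were higher in Adrb1+/m;PS19 mice and 7 met the unadjusted criterion, with summed levels of 33.6 to 55.4 CPM in PS19 and 54.1 to 82.8 in Adrb1+/m;PS19 mice. Lhx8, Gbx1 and Slc5a7, the first 2 transcription factors and the third the choline transporter, had log2 fold changes of 1.23, 1.27 and 0.65 (SE 0.26, 0.35 and 0.21). Their order over the mice was not that of the striatal genes: the score was -0.76 to -0.06 in PS19 and 0.15 to 0.64 in Adrb1+/m;PS19 mice, and m661, low in the indirect-pathway genes, had 0.24. It went with the score of the 9 genes at an r of 0.72, and of 0.56 with genotype means removed.

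Of 9 markers of cortical excitatory neurons 8 were lower and 3, Neurod6, Slc17a7 and Tbr1, met the unadjusted criterion for lower expression, which 1.37% of all genes did, with log2 fold changes of -0.27, -0.19 and -0.13 (SE 0.08, 0.07 and 0.06). Their summed levels were 1684 to 1927 CPM in PS19 and 1544 to 1739 in Adrb1+/m;PS19 mice, and their score went against that of the 9 genes with an r of -0.74, or -0.61 with genotype means removed. The median log2 fold change of these markers was -0.14, and it ran from -0.19 without m661 to -0.06 without m658. The 10 cortical interneuron markers had a score within -0.05 to 0.06 in all mice and an r of -0.02. Of these, Gad2 and Slc32a1, which every GABA neuron uses, projection neurons of the striatum included, had log2 fold changes of 0.24 and 0.18 (SE 0.07 each), while Npy had a log2 fold change of -0.18 ± 0.07. Npy and Vip met the criterion for lower expression and Gad2 and Slc32a1 that for higher. Gad2 did not overlap between the genotypes, with 238.5 to 263.5 CPM in PS19 and 270.3 to 337.1 in Adrb1+/m;PS19 mice. Of all genes tested, 1.02% separated in the same direction, and Lhx8, named above, did so too.

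**Figure D5:**
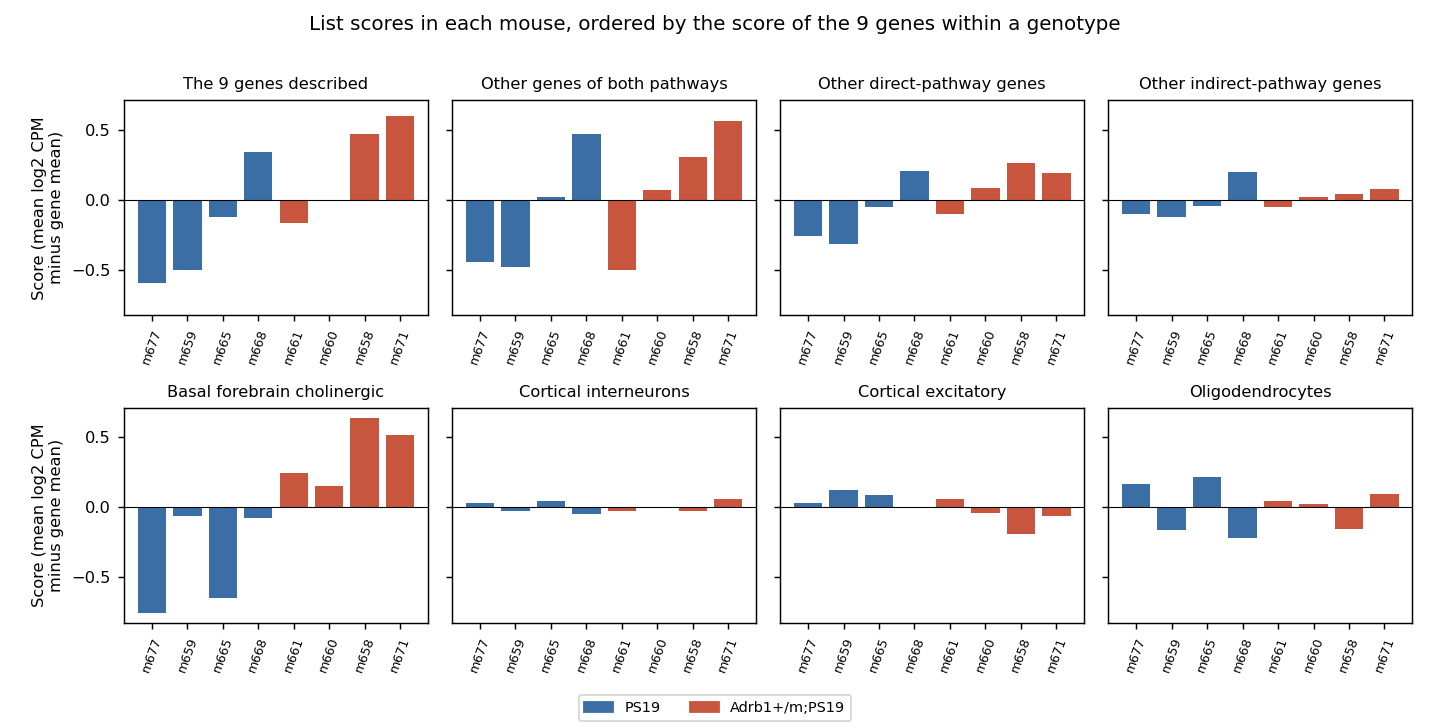
Scores of the 9 genes and of 7 lists of other genes in each mouse (log2 CPM, centred gene by gene and averaged, linear axis shared by all panels), with PS19 mice in blue and Adrb1+/m;PS19 mice in red. The lists of striatal genes repeat the order of the 9 genes most closely, and the cortical interneuron list is almost flat.

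The remaining lists had no gene that met the criterion. Claustrum markers had summed levels of 209.3 to 296.9 CPM in PS19 and 239.4 to 302.6 in Adrb1+/m;PS19 mice and an r of 0.11 with the 9 genes, and of them Gnb4, Ntng2 and Nr4a2 had log2 fold changes of 0.30, 0.11 and 0.05. Thalamic, hippocampal and oligodendrocyte markers had r of -0.19, -0.23 and -0.29, astrocyte markers -0.24 and ependymal markers -0.67. With genotype means removed these were -0.57, -0.09, -0.35, -0.35 and -0.62, and the r of the claustrum markers was -0.05. The median log2 fold change was 0.11 for the thalamus, from 0.06 without m668 to 0.30 without m677. For the hippocampus it was -0.19, but 0.02 without m665, and for the ependyma -0.59, but -0.01 with at least 10 counts in every mouse and -0.29 without m677. For oligodendrocytes and astrocytes it was -0.01 and 0.06, and leaving out single mice turned the sign of both, to 0.06 and -0.02 without m665. The leading markers by p-value were Lef1, Tcf7l2 and Slc17a6 of the thalamus (0.30, 0.23 and 0.10), C1ql2, Lct and Prox1 of the hippocampus (-0.70, -0.32 and -0.06), Mag, Mbp and Mobp of oligodendrocytes (-0.04, -0.04 and 0.04), Aldh1l1, Slc1a3 and Aqp4 of astrocytes (0.08, 0.07 and 0.03) and Ccdc153, Dynlrb2 and Tmem212 of the ependyma (-0.70, -0.78 and -0.59). Choroid plexus markers varied most, with summed levels of 25.0 to 367.9 CPM in PS19 and 26.9 to 583.8 in Adrb1+/m;PS19 mice, highest in m658. Their r with the 9 genes was 0.49, and 0.57 with genotype means removed. Their median log2 fold change was 0.37, but -1.14 without m658, so 1 mouse set its sign, and Clic6, Kl and Folr1 had 0.80, 0.35 and 0.42. The part of these cells in the values of the 9 genes was not tested.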

How the data were processed

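RNA-seq of cortex was compared between 4 PS19 and 4 Adrb1+/m;PS19 mice. The authors aligned reads with HISAT2 2.0.5 and deposited raw counts per gene from featureCounts 1.5.0-p3, on GRCm38. Whether strand was used in counting is not given in the sources used here. Replicates are numbered mice, and p-values weigh the genotype difference against the spread between mice. Libraries held 14653222 to 21223754 counts. All were fitted in edgeR 4.0.16 (R 4.3.3) with TMM factors, filterByExpr, which kept 17195 of 54532 genes, and the quasi-likelihood test with Benjamini-Hochberg adjustment. Log2 CPM carried a prior count of 2. Scripts were tested on simulated data. The 9 genes and the 17 lists were chosen with earlier results of these data known. Named are the 9 genes, up to 3 genes per list with the smallest p-values, and the 10 highest and 3 lowest genes by r with the score of the 9. Some genes that this rule names are not reported here. Vip, Upb1, Gpr52, Drd4, Slc6a3 and Tacr2 were named after their values or their absence from the test were seen. Alternatives were DESeq2 1.42.0, limma-voom (limma 3.58.1), DESeq2 size factors, no filter, 1 surrogate variable (sva 3.50.0), a minimum of 10 counts in each mouse, protein-coding genes only, a prior count of 0.5, Spearman's rho, omission of Drd3 and of each mouse in turn.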

Additional observations from a re-analysis of the deposited data

Results flagged for a closer look

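Within the Adrb1+/m;PS19 group, m661 stood apart from the other 3 mice in its ratio of Drd1 to Drd2, which was 2.01 against 1.13 to 1.20. The gap to the nearest mouse was 0.916 of the whole range of the group, above Dixon's 95% critical value for 4 samples. Its ratio of Drd1 to Adora2a, 1.12 against 0.694 to 0.761, stood apart in the same way, with a gap of 0.846 of the range. Both ratios share Drd1, and their genes were chosen with the covariation over these mice known, so this is a description. In all, 84 groups of values were examined and these 2 were beyond the critical value, where chance flags about 1 in 20 groups.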

How the results depend on the processing

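All 9 genes were higher in Adrb1+/m;PS19 mice under every alternative that kept them in the test, 134 values in all. The genes were chosen by this difference in these same libraries, and each alternative refitted those libraries or a part of them. The shared sign is therefore a description and no independent support for a difference between the genotypes. Drd3 left the test with at least 10 counts in every mouse. With no filter beyond 1 count, 66 genes passed at an adjusted p under 0.05 in edgeR, 6 of them among the 9, against 0 with the filter, and 1366 against 481 genes had an unadjusted p under 0.05, all 9 among them. The cause was not tested. DESeq2 and limma-voom called 0 genes after adjustment, and 555 and 492 at an unadjusted p under 0.05. Leaving out 1 mouse at a time gave 0 to 2 genes after adjustment, 1 without m661 and 2 without m658. The median log2 fold change of the 9 genes ran from 0.19 without m671 to 0.62 without m668, and that of Ppp1r1b from 0.05 to 0.50 without the same mice. The mean r of the pairs ran from 0.667 without m677 to 0.878 without m661, and with genotype means removed from 0.573 without m668 to 0.861 without Drd3. The median log2 fold change of the choroid plexus markers changed sign without m658, from 0.37 to -1.14, and that of the ependymal markers went from -0.59 to -0.01 with at least 10 counts in every mouse. No paired analysis was possible because, although controls were littermates, no litter is named for any mouse in the labels. Depth limits Drd3, with 5 to 46 counts.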
